A study of Rattus norvegicus with 24 samples.

Results

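The blood transcriptome of rats that received neither beta-glucan nor lipopolysaccharide (LPS) was described from the 4 arrays of the C-G0 group, out of 24 arrays in 6 groups of 4. All rats were male Sprague-Dawley animals from Charles River, 8 weeks old when the experiment started. The C-G0 rats ate a semi-synthetic control diet for 6 weeks, were injected with saline in place of LPS (a dose of 0 mg/kg) and were bled by cardiac puncture after a fast, so the samples were whole blood with all of its cells. Each array held the RNA of 1 rat in the Cy3 channel and a common reference pooled from the rats of the experiment in the Cy5 channel, by the dyes in the sample labels. The dyes are named the other way round in the study's methods. The labels were followed, and the Cy5 signal was the steadier one between arrays, with Spearman correlations of 0.967 to 0.994 between pairs of arrays over the 6910 ranked probes against 0.894 to 0.960 in Cy3. These correlations are across probes, which share an array and are not independent replicates.

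Probes were ranked by mean scaled log2 Cy3 signal, and only those marked well above background on each of the 4 arrays took part. A scaled log2 signal of 0 is the 75th percentile of that array's probes, and a step of 1 is a factor of 2 in brightness. Of 30367 probes, 6910 were ranked, which was 22.8%, while 15803 were well above background on none of the 4 arrays. They stood for 4277 of 18338 annotated genes, or 23.3%, and each gene was read from its brightest probe. The 1069 genes in the brightest 25% are called abundant, and the dimmest of them had a mean of 3.29. The next gene below that limit also rounded to 3.29. Brightness depends on a probe's own sequence as well as on how much RNA is present, so the order is one of signal and not of transcript amounts. No comparison of treatments was made, and no test was run within the single group.

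Depth differed between the arrays, since 9586, 11578, 7150 and 14074 probes were well above background in Cy3 on replicates 1 to 4. Replicates 1 and 2 lay on 1 slide and replicates 3 and 4 each on a slide of their own, so that for replicates 3 and 4 the rat and the slide cannot be told apart. No ranked probe was saturated. The array labelled replicate 1 stood apart in Cy3, with the lowest correlations of the 4 arrays, and the spread over all probes, the counts of genes with a 2-fold range and the SDs of reference genes are also given without it.

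Mammalian blood carries far more red cells than white cells. Mature red cells have no nucleus, but the youngest of them, the reticulocytes, still hold messenger RNA for hemoglobin, for heme synthesis and for the machinery that clears their organelles. Platelets carry RNA passed on by megakaryocytes, and neutrophils, monocytes and lymphocytes add the transcripts of immunity. In such a mixture fewer cells of a type and less RNA per cell cannot be told apart.

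The brightest signals of all did not belong to a well annotated gene. Of the 25 brightest probes 16 carried names of unannotated transcripts, beside 2118 of all 6910 ranked probes. Among these 16, 9 belonged to a family of 13 probes. The family was joined to the brightest probe by overlaps of at least 20 bases at 85% identity or more. Stretches of 30 bases from 6 of them are shown because the letters, rather than the probe names, say what the probes have in common. Capitals mark letters that run unbroken in another probe of the family.

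LOC310926: AATTCCCAGTAAGTGCGGGTCATAAGCTTG
A_64_P115964: AATTCCCAGTAAGTGCGGGTCATAAGCTTG
A_64_P033034: ATTCCCAGTAAGTGCaggtcataagcttgc
A_64_P105254: actgCCGATTGGATGGTTTAGTGAGGCcct
A_64_P045137: actaCCGATTGGATGGTTTAGTGAGGCttg
A_64_P119132: GGATTGCAATTATTCTCCATGAACGAGgaa

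These letters are, from general knowledge, those of the conserved end of the 18S ribosomal RNA, the RNA of the small ribosomal subunit. No rat ribosomal RNA sequence was used here, and the family was chosen after its values had been seen. The array design placed 9 of the 13 probes on unassembled sequence of build rn4, the brightest at chrUn:485339-485398. That probe, LOC310926, read 11.81, 11.39, 10.92 and 9.40 on replicates 1 to 4 (mean 10.88 ± 1.05, SD, n = 4). All 13 probes were highest on replicate 1, beside 36.9% of all ranked probes, and lowest on replicate 4, beside 28% of all ranked probes. This order was not particular to the family. Of the 50 brightest probes of any kind, which include 9 of the 13, 46 were highest on replicate 1 and 47 lowest on replicate 4. The median deviation of the 13 from the probe mean was 0.91, 0.57, 0.24 and -1.59 in Cy3, and 0.67, 0.02, 0.07 and -0.79 for the reference RNA in Cy5 on the same arrays. The ends of the order were thus shared by both channels, with the wider span in Cy3.

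Among annotated genes, those of red cells led. Hemoglobin alpha (Hba-a1) was brightest, at 11.10, 10.61, 10.47 and 9.65 on replicates 1 to 4 (mean 10.46 ± 0.60, SD, n = 4). The beta chain genes Hbb-b1, Hbb and Hbb-bs had means of 10.42, 10.27 and 10.08, Hba-a3 had 10.16, and Hbe2, an embryonic-type beta-like globin, had 10.06. Globin genes are near-identical copies, and a probe for one can hold RNA of another, so the values of single globin genes are uncertain. Hbg1 reached only 1.78 ± 0.71, Hbz was well above background on 3 arrays and Hbe1 on 0. In all, 9 of the 25 brightest genes were on the erythroid list, and the count was again 9 without any 1 of the 4 arrays.

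The other erythroid genes at the top serve hemoglobin directly. Alas2, the first enzyme of heme synthesis in red cells, read 10.92, 10.10, 10.21 and 9.57 (10.20 ± 0.56). Ahsp, the chaperone of free alpha globin, read 10.54, 9.71, 9.97 and 9.69 (9.98 ± 0.39), and Bpgm, which makes the phosphate compound that loosens oxygen from hemoglobin, had a mean of 9.54 ± 0.64. Replicate 1 was the highest array for each of these 3 genes. Replicate 4 was the lowest for all 3, although for Ahsp replicate 2 was nearly level with it.

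The spread of the hemoglobin genes was found in both channels. For Hba-a1 the SD was 0.60 in Cy3, 0.56 in Cy5 and 0.11 on the log2 ratio of both. For Hbb the same 3 values were 0.54, 0.56 and 0.17. For both genes the arrays thus differed by about as much in the reference as in the rats.

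Promoter letters of 4 globin genes are shown because these genes share a short element. Each is the stretch from 45 to 16 bases before the gene's start in RefSeq (build GRCr8), and capitals mark the letters TATAAA.

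Hba-a1: tccttacctcctgcacaTATAAAtgaaact
Hba-a3: cttacctcctggacaTATAAAtgaaacttg
Hbb-b1: gggcagaatttggcaTATAAAgcagaacag
Hbb-bs: gggccagaatttggcaTATAAAgcagaaca

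They lie on the minus strand at chr10:15842596-15842625, chr10:15816959-15816988, chr1:167643536-167643565 and chr1:167631646-167631675. Words were also counted on either strand of a longer stretch before the start than the one shown. There TATAAA was found for 6 of the 24 erythroid genes with a promoter in the table and in 13.1% of 27457 promoters. Hbb did not hold these letters from 45 to 16 bases before its start. The longer word CATATAAA, which contains it, was found for 4 of the 24 and in 0.921% of all. Those 4 are the globin genes whose letters are shown above. They include near-identical copies, so this count repeats what was shown and is no separate result. AGATAA, which the factor Gata1 is known to bind, was found for 6 of the 24 and in 10.0% of all, and CCACCC, which is known to be bound by Klf1, for 7 of the 24 and in 26.6% of all. These matches are descriptions of letters before the starts of genes.

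The remaining 16 of the 25 brightest genes fell into a few kinds. The ferritin chains Ftl1 and Fth1, which store iron, had means of 10.19 and 9.91. Of the ribosomal protein genes Rpl41 had 9.96, Rplp0 9.79 and Rps29 9.55. Ubb, a ubiquitin gene, had 9.80, Prdx2, the abundant peroxiredoxin of red cells, 9.42, and Isca1, which helps build iron-sulfur clusters, 9.42.

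Tpt1, a growth-related calcium-binding protein, had 10.10 and Pabpc1, which binds poly(A) tails, 9.93. Of the 25 genes Pabpc1 had the largest SD, 0.83, with 10.55, 9.93, 10.48 and 8.76 on replicates 1 to 4, with replicate 4 lowest. The neuropeptide gene Npy read 10.24, 9.61, 9.07 and 9.42 (9.59 ± 0.49), and its other probe, at 8.72, 8.12, 7.52 and 8.34, kept the same highest and lowest array. Tmcc2, Ybx3, Fbxl15, Tex19.2 and Mink1 completed the 25, with means of 9.82, 9.65, 9.61, 9.32 and 9.26. The gene ranked 26 also had a mean of 9.26.

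Some of these places rest on 1 probe of several. Mink1, a kinase, read 9.90, 9.44, 9.13 and 8.59 on its bright probe and 0.89, 1.59, 2.10 and 3.13 on its other probe, which put the arrays in the opposite order. Tex19.2, named for testis, had 9.32 on 1 probe and 1.18 on the other, Tmcc2 9.82 and 4.93, and Isca1 9.42 and 5.58. For Tpt1 the 3 probes had 10.10, 7.60 and 6.19. In these genes the brightness rank describes the probe named and not every transcript of the gene.

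**Figure D1:**
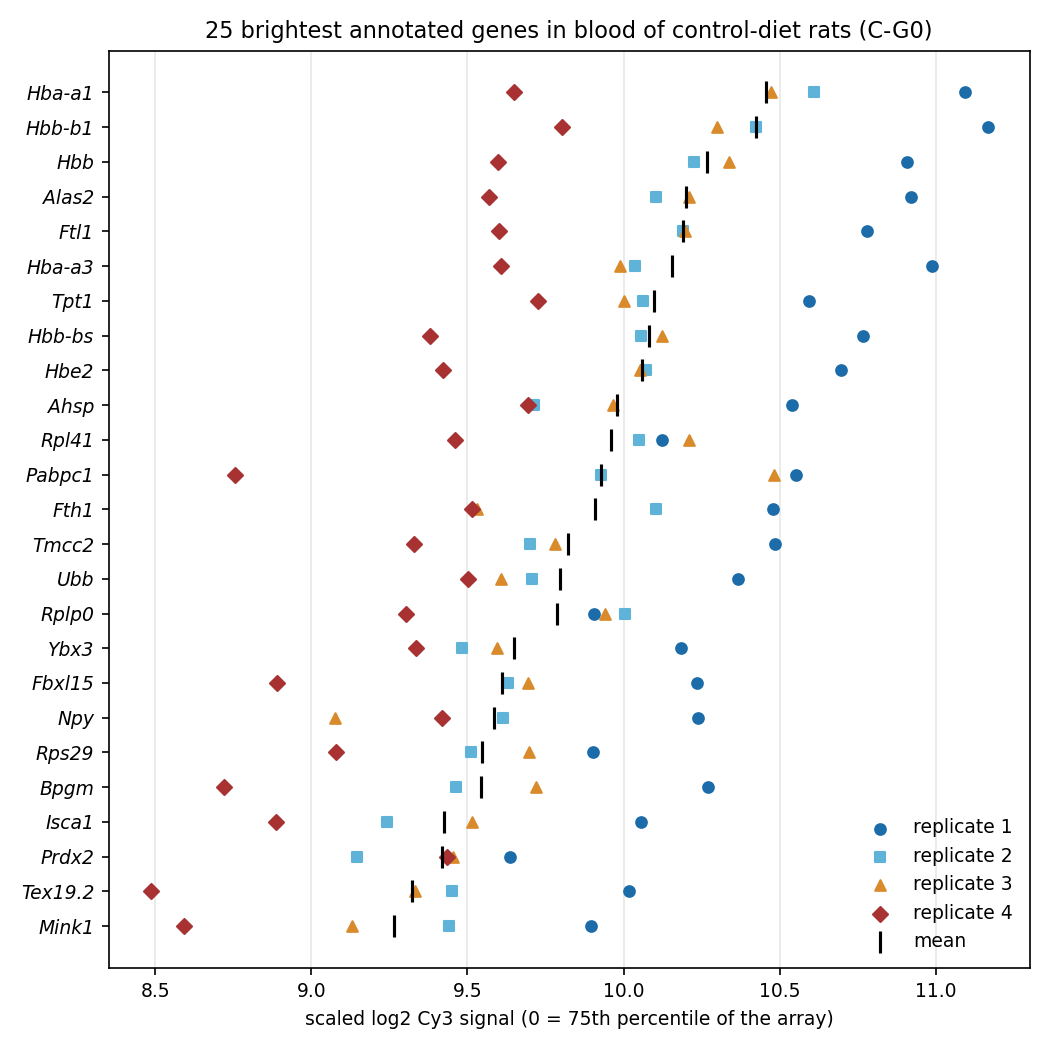
Scaled log2 Cy3 signal of the 25 brightest annotated genes, 1 symbol per C-G0 array and a bar at the mean of the 4. Hba-a1 heads the list at 10.46 and Mink1 closes it at 9.26, and replicate 1 is highest and replicate 4 lowest for most genes.

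The same genes were bright elsewhere in the series. Of the 25 brightest genes 21 were also among the 25 brightest by the mean over the other 5 groups (20 arrays), which shared neither rats nor arrays with C-G0 but did share the reference RNA and the same 3 slides.

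Erythroid genes were also the most completely detected of the cell lists. Of the 32 on the array 27 were well above background on all 4 arrays, beside 23.3% of all annotated genes, and 19 of them were abundant. Below the genes at the top, the red cell membrane was represented by Slc4a1 (band 3, 7.50 ± 0.62) and Rhd (7.98 ± 0.29). Bnip3l, a receptor for the removal of mitochondria, read 9.19, 8.50, 9.25 and 8.56. The erythroid transcription factors were dimmer, with Klf1 at 3.91 ± 0.28 and Gata1 at 3.08 ± 0.29, and the spectrin gene Sptb was near the bottom of the list at 1.68.

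The genes that accompany red cell maturation were bright as well. All but 1 of the 15 genes of ubiquitin and autophagy were detected on all 4 arrays, with Ubb, Bnip3l and Gabarapl2 (8.16) among the brightest. Of 13 antioxidant genes 10 were detected, with Gpx1 at 8.53 ± 0.61, Gpx4 at 7.79 ± 0.33 and Glrx5 at 7.48 ± 0.56 after Prdx2. Of 16 genes of iron storage and heme synthesis 10 were detected, Urod (7.03 ± 0.22) being the brightest after Alas2 and the ferritins.

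Platelet genes came next, with 12 of 19 detected on all 4 arrays. Pf4, a chemokine stored in platelet granules, read 9.40, 8.86, 8.10 and 8.51, and Gp1bb, part of the receptor for von Willebrand factor, read 9.07, 8.50, 7.84 and 8.13. Itga2b, the platelet integrin, had a mean of 7.70 ± 0.39 and the receptor Clec1b 6.15 ± 0.28. Replicate 1 was highest for all 12. Gp6 was well above background on none of the arrays. Below, a gene said to be on none had a probe but was not well above background on any array.

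Genes of white cells were fewer and dimmer. Of 23 neutrophil genes 10 were detected, led by S100a9 (6.04, 5.88, 5.80 and 5.97) and S100a8 (4.73, 4.53, 5.15 and 5.08), which together form calprotectin. Ncf1, of the oxidase that makes superoxide, and Fcnb, a ficolin, had means of 3.45 ± 0.55 and 3.28 ± 0.93. The granule genes Ltf, Lcn2, Ngp, Elane, Cd177, Np4, Defa5, Prtn3 and Ctsg were well above background on none of the arrays.

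Of 16 monocyte genes 7 were detected. Lyz2, lysozyme, read 7.36, 8.69, 8.32 and 8.27, and Lgals3, Fcgr1a and Cx3cr1 had means of 3.69, 3.49 and 2.85. The tissue macrophage genes Cd163, Ms4a7, Msr1 and Mrc1 were well above background on none of the arrays. Dendritic, eosinophil and basophil lists had 1 of 10, 1 of 8 and 2 of 10 genes detected, each below the 23.3% of all annotated genes. These were Ccr9 (1.43), Alox15 and the proteases Mcpt1l1 (1.80) and Mcpt8 (1.67). Alox15, a lipoxygenase also known from reticulocytes, read 7.81, 7.09, 6.61 and 6.48, while the eosinophil granule genes Prg3, Epx and Rnase3 and the receptors Ccr3 and Il5ra were on none. Of the other 2 lists Xcr1, Clec9a, Batf3, Fcer1a, Ms4a2, Gata2, Prss34 and Kit were on none.

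Lymphocyte genes were all at moderate or low signal, apart from 1 probe. Of 21 T cell genes 12 were detected, with Cd3d of the T cell receptor complex at 4.38, 4.44, 4.66 and 5.43, Cd3g at 3.12, 3.77, 4.07 and 4.75, and Tcf7, a transcription factor of resting T cells, at 4.02 ± 0.61. For both Cd3 genes replicate 1 was lowest and replicate 4 highest. Cd28, Trat1 and Thy1 were well above background on none of the arrays. Of 14 B cell genes 5 were detected, among them Pax5, Fcrla and Cd79b with means of 3.07, 2.91 and 2.62. Of the 6 plasma cell genes only Pou2af1 was (3.34 ± 0.80), a share below the 23.3% of all annotated genes. Cd72, Sdc1, Tnfrsf17, Mzb1 and Prdm1 were well above background on none of the arrays.

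Of 19 genes of cytotoxic and NK cells 9 were detected. Tbx21, the transcription factor T-bet, held rank 56 with 9.17, 9.05, 8.71 and 7.31, far above the next gene of the list, Gzmm, at rank 924 with 2.80, 3.86, 4.00 and 3.65. The order of the arrays for Tbx21, highest on replicate 1 and lowest on replicate 4, was that of the 18S-like probes and of most of the 50 brightest probes. It was not that of Gzmm, Nkg7 (3.52 ± 0.60) or Prf1 (3.10 ± 0.66), all lowest on replicate 1. Klrb1b and Ncr3 were on none. Whether the Tbx21 probe measured its gene was not tested.

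Lists for tissues outside the blood and for dividing cells had shares detected at or below the 23.3% of all annotated genes. Of 13 heart muscle genes Actc1 (3.63), Ryr2 (2.26) and Mb (1.39) were detected, or 23.1%. The chamber genes Myh6, Myh7, Tnni3, Myl7, Myl2, Nppa and Nppb, with Ckm and Pln, were well above background on none of the arrays. The liver list had only Tf (4.58), with Alb, Apoa1, Ttr, Fgb, Fga and Cyp2e1 on none. Endothelium had Kdr (0.46), with Tek, Emcn, Cldn5 and Tie1 on none, and fibroblasts had Col1a1 (2.65), with Col3a1, Dcn, Lum, Pdgfra and Postn on none. Of 7 epithelial genes 0 were detected on all 4 arrays, and Epcam, Krt8, Krt18, Krt19, Cdh1 and Vil1 were on none. Dividing cells had Mki67 (1.92), Birc5 (1.41) and Tpx2 (0.67) of 13, again 23.1%, with Aurkb, Ccna2, Kif11 and Cenpf on none.

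**Figure D2:**
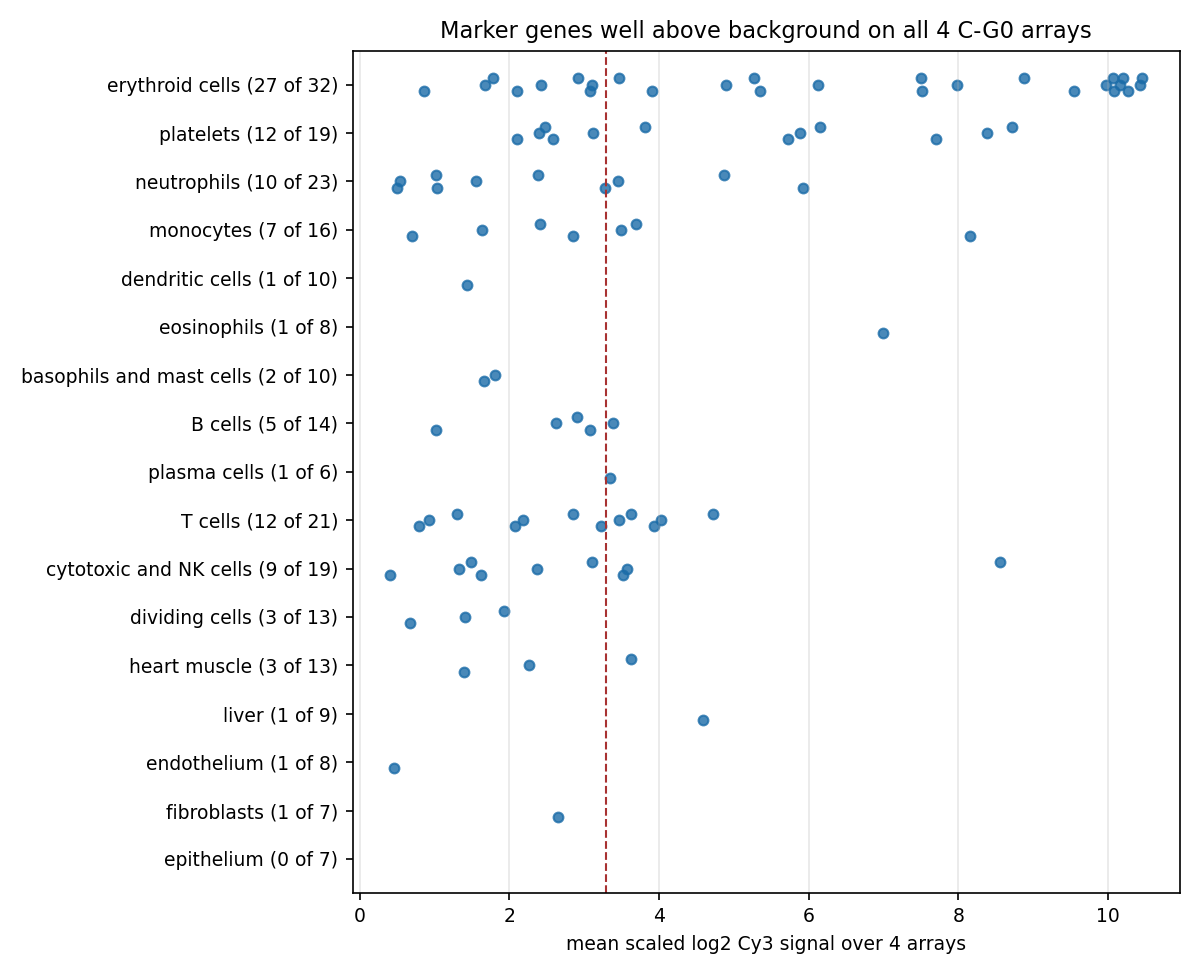
Mean scaled log2 Cy3 signal of each marker gene well above background on all 4 C-G0 arrays, 1 point per gene and 1 row per list, with the number detected of those on the array. The dashed line is the lower limit of abundant genes, 3.29; erythroid and platelet genes reach farthest to the right, and the single bright points of the NK, monocyte and eosinophil rows are Tbx21, Lyz2 and Alox15.

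Function lists gave the rest of the picture. Over all 18338 annotated genes 4277, or 23.3%, were detected on all 4 arrays and 1069 were abundant. Of 101 cytosolic ribosomal protein genes 94 were detected and 89 were abundant, which was 8.33% of the 1069 abundant genes. Of 97 genes of oxidative phosphorylation 79 were detected and 36 were abundant, Cox6a1 (8.56) and Atp5if1 (8.31) being the brightest. Of 25 actin cytoskeleton genes 22 were detected, led by Myl6 (9.03), Actg1 (8.64), Tmsb4x (7.73) and Actb (7.65), and of 18 glycolytic genes 13, where Gapdh (6.86), Ldha (5.76) and Eno1 (5.36) followed Bpgm.

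Genes of the interferon response and of inflammation were detected in part, beside 23.3% of all annotated genes, a share close to that of the cytokine list. Of 24 interferon-stimulated genes 12 were detected, with Rsad2 at 8.99, 7.06, 7.76 and 7.86, Irf7 at 6.60 ± 0.52, Oas1b at 6.30 ± 0.12 and Mx2 at 4.00 ± 0.17. Rsad2, an antiviral enzyme, and Oas1b, a sensor of double-stranded RNA, thus differed in how steady they were. Of 20 cytokine and chemokine genes 5 were detected, namely Ccl5 (6.32 ± 0.26), Il16 (3.32), Il1b (3.28), Il1rn (2.73) and Ccl3 (1.20). Of 25 immediate-early and stress genes 14 were detected, Jund (6.74), Fosb (3.43), Ier2 (3.11) and Junb (2.91) leading. Of 11 clock genes only Dbp (2.16) was, which is below the share of all annotated genes.

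Genes of antigen presentation were detected for both classes. Of 17 genes of MHC class I and its partners 12 were detected, with B2m at 7.96 ± 0.28, RT1-A1 at 6.99 ± 0.16, RT1-A2 at 5.02 ± 0.07 and Calr at 4.44 ± 0.32. Of 10 MHC class II genes 7 were detected, with Cd74, the invariant chain, at 5.29, 6.75, 6.73 and 6.82, RT1-Da at 2.37, 3.88, 4.03 and 4.38 and RT1-Db1 at 2.74, 3.58, 3.95 and 4.00. Replicate 1 stood below the other arrays for these 3 genes, while RT1-Bb (4.38, 4.16, 4.04 and 4.12) was highest there. RT1 genes are close relatives of each other, so their single values are uncertain.

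Between the rats, the lists differed most on replicate 1. The white cell and MHC class II lists held 55 ranked genes, of which 36, or 65.5%, were lowest on replicate 1, beside 45.3% of all ranked genes. In the reference channel 2 of the 55 were lowest there. The share of all ranked genes in that channel was not counted. Their median deviation on replicate 1 was 0.06 in Cy5 and -0.14 in Cy3, so genes of any kind stood higher there in the reference. In the neutrophil, eosinophil and basophil lists 3 of 13 genes were lowest on replicate 1 and in the other lists 33 of 42, a division made after the values had been seen and whose difference was not tested. The erythroid and platelet lists held 39, of which 30, or 76.9%, were highest on replicate 1 and 0 were lowest. Of all ranked genes 33.9% were highest there. In the reference channel 26 of the 39 were highest on that array, again without a count over all ranked genes. Bright probes of any kind shared this order. Of the 50 brightest probes, globin probes among them, 46 were highest on replicate 1, and of the 1727 brightest ranked probes 795 were. With quantile normalization the SD went from 0.60 to 0.063 for Hba-a1 and from 0.57 to 0.068 for Hbb-bs, but from 0.39 to 0.43 for Ahsp. Whether the 2 lists differed from other probes of like brightness was not tested.

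By the median deviation from each gene's mean, replicate 1 stood at 0.56 for erythroid and 0.50 for platelet genes in Cy3, against 0.26 and 0.19 in Cy5. It stood at -0.67 for monocyte, -0.58 for T cell, -0.78 for cytotoxic and NK, -0.65 for B cell and -0.83 for MHC class II genes in Cy3, and at 0.15, 0.08, 0.08, 0.12 and 0.02 in Cy5. Interferon-stimulated and immediate-early genes stood at -0.70 and -0.55, all annotated genes at -0.14, and the granulocyte lists at 0.14 for neutrophils, 0.81 for the single eosinophil gene and 0.42 for the 2 of basophils. Replicate 2, on the same slide, stood at -0.27 for erythroid and 0.34 for monocyte genes. With few genes a list, several of them low in signal, these medians are descriptions of 4 animals.

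Shares of the summed signal of all annotated genes, ranked or not, gave the same split in other terms. Erythroid genes held 13.3%, 10.2%, 10.7% and 8.44% on replicates 1 to 4. Ribosomal protein genes held 13.1%, 17.2%, 17.2% and 18.2%. The share of T cell genes ranged from 0.06% to 0.17% and that of monocyte genes from 0.14% to 0.44%, with replicate 1 lowest for both.

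**Figure D3:**
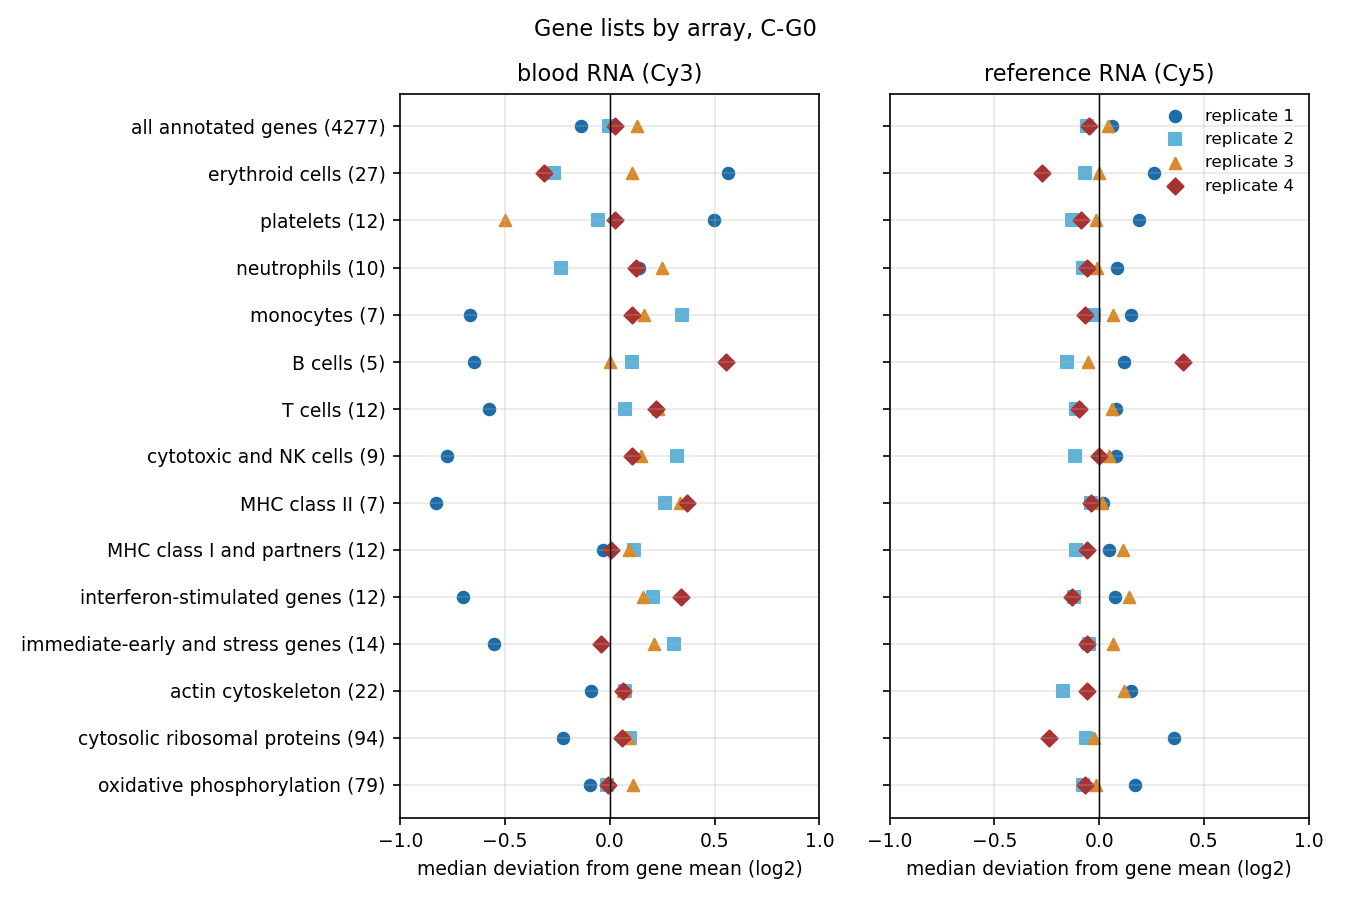
Median deviation of each list's ranked genes from the gene means (log2), 1 symbol per C-G0 array, in blood RNA (Cy3, left) and in the common reference on the same arrays (Cy5, right), with the number of genes in each list. Replicate 1 lies at 0.56 for erythroid and at -0.83 for MHC class II genes in Cy3, and at 0.26 and 0.02 in Cy5.

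Variation between the 4 arrays was larger in the blood RNA than in the reference. The median SD over ranked probes was 0.41 in Cy3 and 0.22 in Cy5, and 0.32 on the log2 ratio, beside 0.092 between spots of the same probe on 1 array (3750 probes with several spots). Of the ranked probes 84.6% had the larger SD in Cy3. At least a 2-fold range over the 4 arrays was seen in 3011 probes, or 43.6%, and in 769 in Cy5. Without replicate 1 the median SD in Cy3 was 0.28 and the number with a 2-fold range 1139. For annotated genes the share with a 2-fold range was 47.5%.

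Beside that share, a 2-fold range was seen in 19 of 27 erythroid, 8 of 12 platelet, 8 of 12 T cell, 8 of 9 cytotoxic and NK and 6 of 7 MHC class II genes, and in 14 of 94 ribosomal protein, 3 of 12 MHC class I and 3 of 14 reference genes. Without replicate 1 these counts were 8, 3, 0, 1 and 1, and 0, 0 and 1, over the genes detected on the other 3 arrays. The share over all probes also fell without replicate 1. A 2-fold range was then seen in 1139 of 7112 probes, beside 3011 of 6910 with all 4 arrays.

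The 12 most variable abundant genes had SDs from 1.05 to 2.47, and the gene after them 1.04. They were chosen by that SD, so it is a description. They fell into 2 kinds by the reference channel. In Ctrb1, Plekhb1, Fn1, Phf11, Ccndbp1 and Kmt5a the SD in Cy5 was 0.11 to 0.36, and these 6 were also among the 12 most variable on the log2 ratio. In Foxe1, Ctnnal1, Mmp15, Agps, Otx1 and Psd it was 0.55 to 0.77, and none of these 6 was. The ratio holds the Cy5 value, so its ranking follows in part from this division and is no separate support for it. Without replicate 4, which was lowest for all 6 of the second kind, 4 of the 12 genes (Ctrb1, Plekhb1, Fn1 and Ccndbp1) were still among the 12 most variable.

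The first kind varied in no common order. Ctrb1, chymotrypsinogen, a digestive protease of the pancreas, read 1.18, 5.33, 5.80 and 6.77 (SD 2.47, and 0.11 in Cy5), so that replicate 1 stood far below the others, and without replicate 1 the SD was 0.74. Plekhb1, a membrane-associated protein studied in photoreceptors, read 5.75, 3.87, 1.71 and 3.85, and Fn1, fibronectin, 1.73, 4.78, 3.55 and 3.31. Their lowest arrays were replicates 3 and 1, and without replicate 1 the SD of Fn1 was 0.79.

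Phf11, a zinc finger gene, read 3.91, 5.22, 3.59 and 6.09, and its second probe kept that order of high and low arrays at 0.55, 1.55, 0.51 and 2.52. Ccndbp1, a partner of cyclin D, read 7.92, 5.44, 5.69 and 6.91. Kmt5a, a histone methyltransferase, read 4.43, 3.32, 3.88 and 1.77. The 3 genes had their highest values on replicates 4, 1 and 1.

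The spread of Ctrb1 was seen again in animals that did not choose it. In the 20 arrays of the other 5 groups 8 lay between -0.50 and 0.78 and 12 between 4.66 and 7.18, with at least 1 low array in each of the 5 groups. The dividing value of 4 was set after these values had been seen. Hba-a3, whose SD in C-G0 was only 0.59, was also divided in the other groups, where 3 of 20 arrays lay between -0.34 and 3.84 and 17 between 9.12 and 10.78.

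The second kind shared an order. Mmp15, a membrane metalloprotease, read 7.71, 7.41, 6.73 and 5.11, Psd, an exchange factor for Arf GTPases, 7.60, 7.37, 7.08 and 5.28, and Ctnnal1, a relative of alpha-catenin, 6.45, 6.10, 5.59 and 3.70. Foxe1, a thyroid transcription factor, read 5.69, 5.56, 4.70 and 2.98, Otx1, a homeobox factor of the brain, 5.32, 5.13, 4.82 and 2.92, and Agps, an enzyme of ether lipid synthesis, 4.46, 4.47, 3.20 and 2.18. Replicate 4 was the lowest array for all 6, as it was for the 13 probes of the 18S-like family and for 47 of the 50 brightest probes. Replicate 1 was highest for all but Agps.

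**Figure D4:**
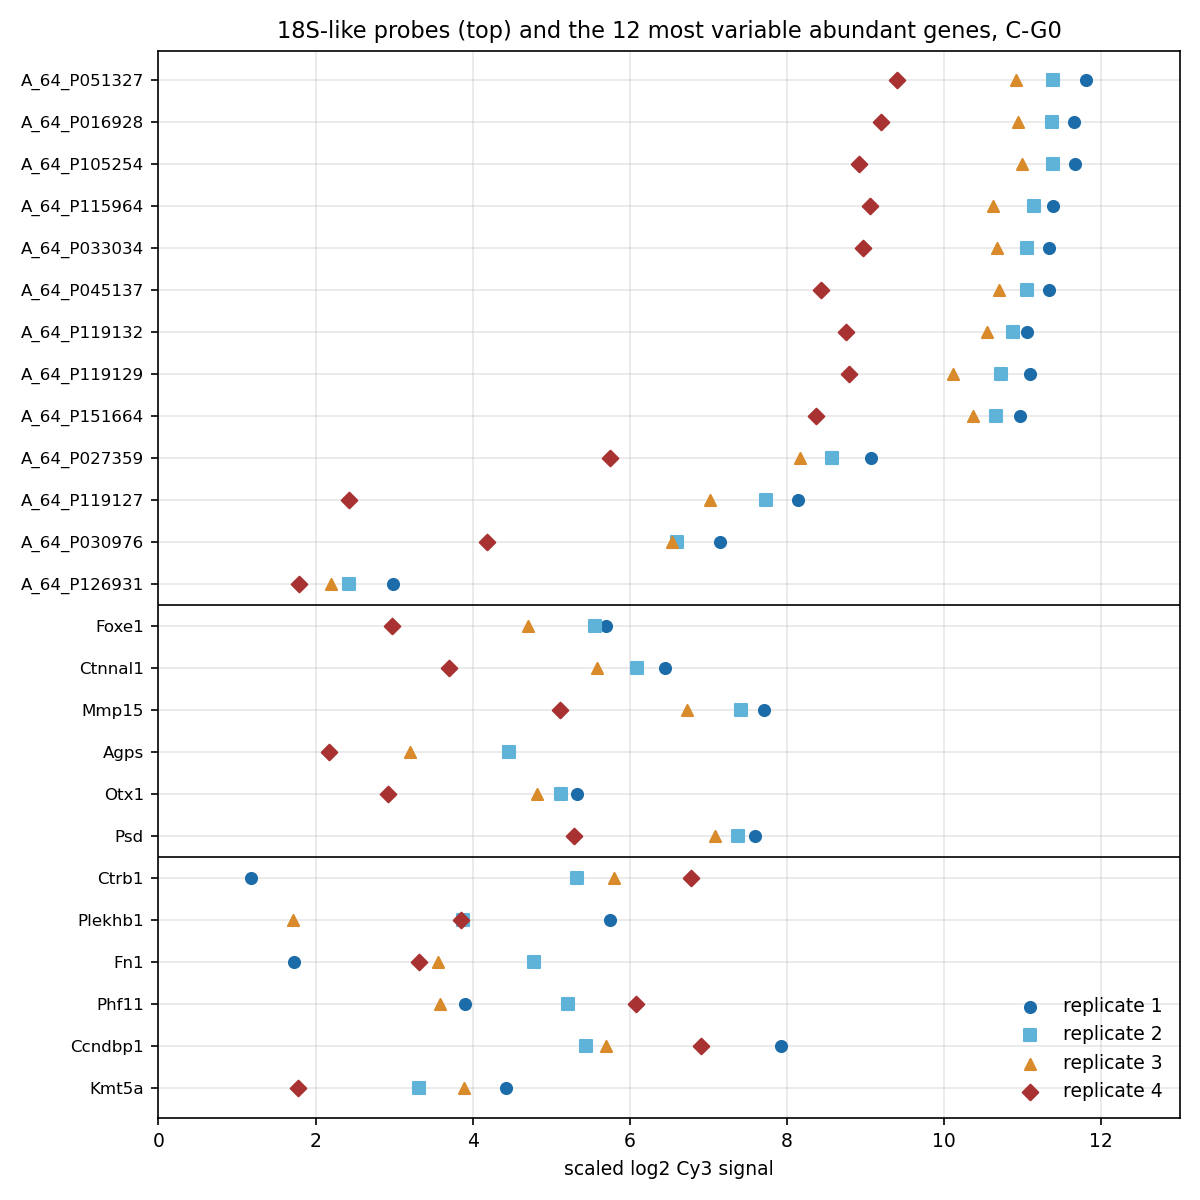
Scaled log2 Cy3 signal on the 4 C-G0 arrays, 1 symbol per array, for the 13 probes of the 18S-like family (top), the 6 most variable abundant genes that also varied in the reference channel (middle) and the other 6 (bottom). Replicate 4 is lowest in every row of the upper 2 blocks, while in the lowest block the order of the arrays changes from gene to gene.

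The letters of the probes were set beside this order. Stretches of 30 bases from 11 probes are shown, with the longest run of G and C in capitals, so that the probes behind this order can be set beside others. The first 6 are the genes of the second kind, the next is Tbx21, and the last 4 are a variable gene of the first kind, a bright globin and 2 steady genes.

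Foxe1: GCGCCCtcctcgaacaaaaaggaaaagtaa
Mmp15: ccccctCCCCGCatcgtttagttctgtaaa
Psd: atgttttctgcaCCCCCCttcccagctgct
Agps: gctgcttctCCCGCCGCGCCGGagtcgggc
Otx1: acgcaactaccttCGCCCtccgtggtccct
Ctnnal1: ggtccagctcctctCCCtttgctataagct
Tbx21: agaagtgtcccctGCCCCttcctctgcccg
Ctrb1: tgctgtgtattCCCGagtcacagccctcat
Hba-a1: ccttcttCCCtcccttgcacctatacctct
Rpl29: CCCatagaacaggctcctgccagtgtgaag
RT1-CE2: tgaGCCGCtttcccagagatgggagccttc

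The longest run was 6 bases in Foxe1, Mmp15 and Psd, 13 in Agps, 5 in Otx1, in Tbx21 and in the steady RT1-CE2, 4 in Ctrb1, and 3 in Ctnnal1, Hba-a1 and Rpl29. The word CCCC, read on the probe's strand, was in 10.9% of all probes of 60 bases on the array, in 15.6% of ranked probes and in 16.6% of the brightest 25% of them (1727 probes). Of the 100 most variable of these 1727 probes 40 had it, and of the 100 least variable 20. Of those 100 most variable probes 85 were lowest on replicate 4, beside 34 of the 100 least variable and 630 of the 1727. Unannotated were 64 of the 100 most variable, beside 68 of the 100 least variable and 875 of the 1727. Probes with over 60% G and C, of which 154 were ranked, had a median SD of 0.65, and their median deviation was 0.63, 0.31, -0.33 and -0.66 in Cy3 and 0.43, 0.07, -0.30 and -0.14 in Cy5. Probes with 40% or less had a median deviation of -0.32 on replicate 1 in Cy3 and 0.03 in Cy5. Grouped by G and C content, only the probes with over 60% had a median that low on replicate 4 in Cy3. Those with over 55% and up to 60% stood at -0.08 there. Of the second kind only Agps, with 73.3% G and C, was in that group. Foxe1 had 35%, Ctnnal1 45%, Mmp15 48.3% and Otx1 and Psd 55%. The 18S-like probes had 41.7% to 55%, beside a median of 45% over ranked probes. With the median deviation of each bin of G and C content removed from each array, an alternative chosen after seeing the data, the SDs were 1.37 for Foxe1, 1.24 for Ctnnal1, 1.11 for Mmp15, 1.02 for Otx1 and 0.96 for Psd, and 0.56 for Agps.

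The 12 least variable abundant genes had SDs from 0.018 to 0.076, and the gene after them 0.077. They held 4 ribosomal protein genes (Rps14, Rpl29 and Rpl35a among them), 2 subunits of respiratory complex I (Ndufa13 and Ndufb4), 2 MHC class I genes (RT1-CE2 and RT1-A2), and Snrpb, Arf3, Tpm3 and Atic. RT1-CE2 read 5.61, 5.61, 5.59 and 5.63, but its second probe, with a mean of 0.62, had an SD of 0.37. Among the 50 least variable abundant genes 12 were ribosomal, beside 8.33% of all abundant genes.

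These SDs were below those of the same probes in the reference, whose median was 0.20, and below the spread between spots of a typical probe. With 4 arrays, the smallest of 1069 SDs lie far under the spread that the same genes showed elsewhere: in the other 5 groups their median SD was 0.20. All 12 were below the median SD of abundant genes in those groups, 0.34, and 0 were above the 90th percentile of 0.61, which by its definition left 10% of 1068 genes above it. Of the 12 most variable genes 10 were above that percentile. The other groups lay on the same 3 slides as C-G0, so a difference between slides would be in both SDs, and its part was not tested.

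**Figure D5:**
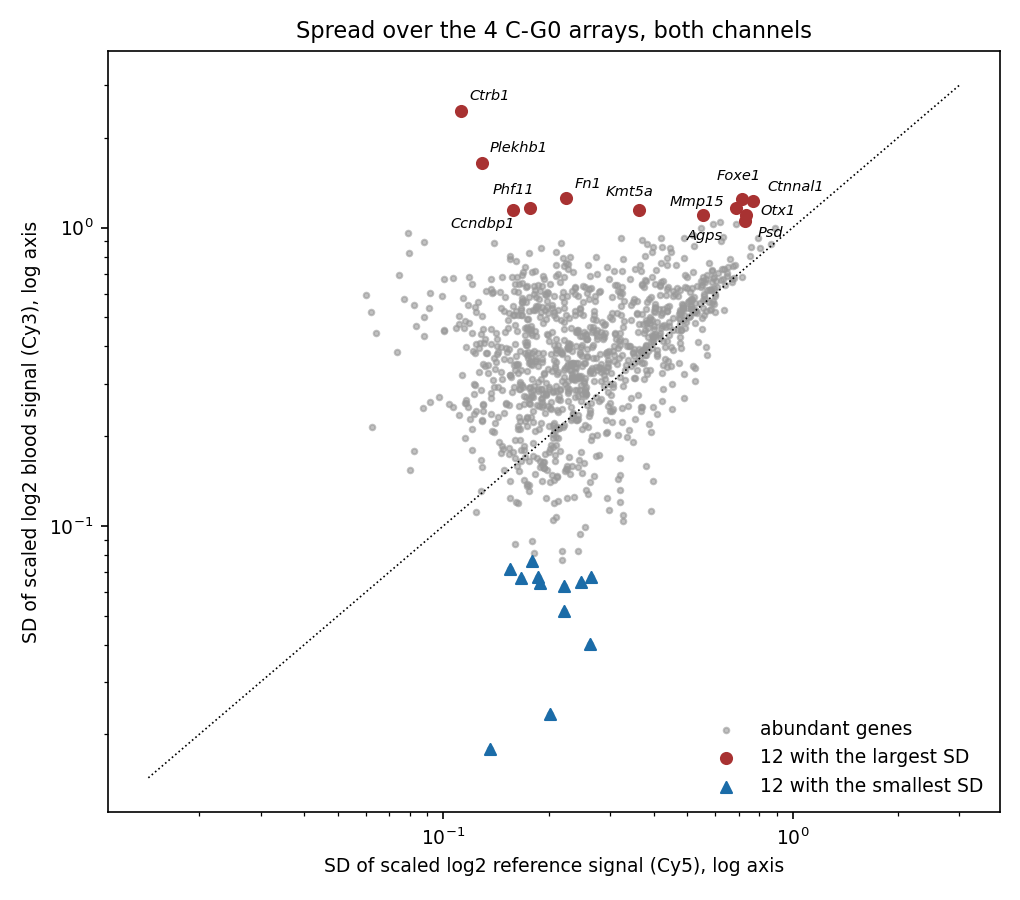
SD over the 4 C-G0 arrays in blood RNA (Cy3, vertical) against the SD of the same probe in the common reference (Cy5, horizontal), both on log axes, 1 point per abundant gene; the dotted line marks equal SDs. The 12 genes with the largest SD (circles) lie in 2 places, 6 with a Cy5 SD of 0.11 to 0.36 and 6 with 0.55 to 0.77, and the 12 with the smallest SD (triangles) lie below the line.

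Genes often used as references in RT-PCR were not all steady. Of 17 on the array 14 were detected on all 4 arrays and 11 were abundant. Pgk1 (5.33 ± 0.08) and Eef1a1 (6.42 ± 0.14) had the smallest SDs, followed in this setting by Hprt1 (1.91 ± 0.21), Rpl13a (7.75 ± 0.24) and B2m (7.96 ± 0.28). Gapdh read 7.15, 6.51, 6.53 and 7.24, and Actb 7.64, 8.01, 7.93 and 7.01, so the lowest array was replicate 2 for Gapdh and replicate 4 for Actb.

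Rplp0 (9.79 ± 0.33), Ywhaz (2.98 ± 0.37), Rps18 (6.35 ± 0.38), Ppia (6.57 ± 0.53) and Sdha (1.10 ± 0.57) had larger SDs. Many of these SDs rest on 1 array. Without replicate 1 they were 0.18 for Ppia, 0.24 for Sdha and 0.16 for Rps18, and without replicate 4 they were 0.05 for Rplp0, 0.09 for Ywhaz and 0.20 for Actb. The order also changed with the processing, since with normexp background correction Pgk1 had 0.37 and Eef1a1 0.49, above Hprt1 and Ywhaz at 0.28, and on the log2 ratio Hprt1 had 0.10 and Pgk1 0.20. Tfrc was well above background on 3 arrays, Gusb on 2 and Tbp on 1.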

How the data were processed

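The 4 C-G0 arrays were grouped by the sample labels. The deposited values were intensities of 60-base probes on SurePrint G3 rat arrays, background-subtracted, detrended and Lowess-balanced between dyes by the authors with Agilent Feature Extraction (10.10.1.1 in the file headers, 10.7.3.1 in the labels), not scaled between arrays. Balancing within an array couples the channels, so a processed Cy3 level also depends on the reference. The authors' table of log ratios was not used.

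Spots with an outlier flag (923 to 1050 per array) were left out, signals under 1 were set to 1, spots were averaged on the log2 scale and the 75th percentile of each array was subtracted. A probe counted as well above background where most of its kept spots were. The array design gave positions on rn4 for 29682 probes, and 18643 accessions matched the RefSeq table. Named were the 25 brightest genes, the 12 most and 12 least variable abundant genes, up to 4 genes a list, cell markers found on no array, reference genes and globins (some genes these rules name are not reported here); others were chosen after their values were seen. Members and lists were chosen with earlier results of these data known. The labels call the samples biological replicates, and their number limits the precision. Python 3.11.15, pandas 2.3.3, numpy 2.4.6 and matplotlib 3.10.9 were used, with limma 3.58.1 in R 4.3.3 for the alternative background correction, and the scripts were tested on simulated data.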

Additional observations from a re-analysis of the deposited data

Results flagged for a closer look

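Single arrays lay far from the other 3 for 6 of the 137 genes checked, by the gap to the nearest array over the whole range. Chance alone gives about 1 in 20, and these 6 were 4.38%, so there were no more of them than chance gives. Their values are given as descriptions. Replicate 1 was the low array for the MHC class II invariant chain Cd74 (ratio 0.944), the Fc receptor gene Fcgr1a (0.847; 2.59, 3.78, 3.90 and 3.70) and the immediate-early gene Ier2 (0.859; 2.41, 3.41, 3.27 and 3.34). It was the high array for myoglobin, Mb (0.971; 2.14, 1.15, 1.15 and 1.12), and for the complex I subunit Ndufa1 (0.902; 7.79, 7.13, 7.11 and 7.17). Replicate 4 was the low array for Rplp0 (0.858; 9.90, 10.00, 9.94 and 9.30).

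Of 22 lists checked by their median deviation, 4 had such an array, replicate 1 in each. It was high for heart muscle (ratio 0.969, 3 genes), where Myh6, Myh7 and the natriuretic peptide genes were well above background on none of the arrays. Mb, named above, is 1 of the 3 genes, so this list is not separate from that gene. Ryr2, another of them, read 2.28, 1.82, 2.36 and 2.59 and was highest on replicate 4. It was low for actin cytoskeleton (0.923), MHC class II (0.916) and cytosolic ribosomal proteins (0.885), the last at -0.22 in Cy3 but 0.36 in Cy5. Lists share arrays and are not independent of each other.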

How the results depend on the processing

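No paired analysis was possible because the description has 1 group and no test. The number of ranked probes (6910) ran from 6835 to 9312 over its alternatives, 23 to 25 of the 25 brightest genes were shared, and the erythroid count was 9 under each of its alternatives. The median SD of 0.41 was 0.32 on the log2 ratio and 0.28 to 0.44 when 1 array was left out. The 3011 probes with a 2-fold range became 1764 on the ratio, 4674 with detection on at least 3 of 4 arrays and 1139 to 3356 when 1 array was left out, the lowest without replicate 1. Of the 12 most variable genes 6 were shared on the ratio and 4 to 9 when 1 array was left out, 7 without replicate 1 and 4 without replicate 4. Of the 12 least variable genes 0 were shared with normexp background correction, with no scaling and on the ratio, 1 with the signal before dye balancing, 2 with quantile normalization and with GC bins centred (chosen after seeing the data), and 2 to 5 when 1 array was left out, so this list depends on the processing. With outlier spots kept, Ubald1 (SD 5.11) headed the variable genes. Dim probes are limited by signal over background, which differed between the arrays.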
